A study of Rattus norvegicus with 32 samples.

Results

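The genes described are the small heat shock proteins of muscle, Hspb1, Hspb2, Hspb3, Hspb6, Hspb7, Hspb8 and Cryab, together with Bag3, the co-chaperone that works with Hspb8. They were chosen by gene symbol, with earlier results of these data known. Of these genes 8 of 8 were found among the 12901 genes of the deposited table. The tissue was the gastrocnemius, a calf muscle in which fast fibres prevail, of male rats 20 weeks old. Control (wild-type) rats were compared with UCP1 knockout rats, which lack the proton channel that brown fat uses to make heat, either at room temperature or after 2 weeks at 4 °C. There were 7 libraries of control rats and 9 of knockout rats at each temperature, 32 in all, and the labels name neither the allele of the knockout nor whether the temperatures were sampled in separate animals.

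Small heat shock proteins bind unfolding proteins without using ATP and hold them until other chaperones refold them or hand them on for degradation. Bag3 links Hspb8 to the Hsp70 chaperones and steers damaged proteins of the Z-disc, the anchor of the thin filaments, to autophagy. In striated muscle these proteins guard the contractile apparatus and the desmin network, and several of their genes respond to the heat shock factor Hsf1. Slow, oxidative fibres are known to hold more Cryab than fast fibres.

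Upstream windows of these genes are shown because the genes have a known heat shock factor and because most of them moved together in cold, as given further on. RefSeq (build GRCr8) gave a window of 300 bases, from 250 before to 50 after the start, for 6 of the 8 genes: Hspb1, Hspb3, Hspb6, Hspb7, Hspb8 and Bag3. The windows printed lie at chr12:26432252-26432551 (minus strand) for Hspb1, chr1:94934122-94934421 (plus strand) for Hspb6, chr12:45837058-45837357 (plus strand) for Hspb8, chr1:192533210-192533509 (plus strand) for Bag3 and chr5:159010509-159010808 (plus strand) for Hspb7. Counts were made on another build, Rnor_6.0, and the Hspb8 window lies inside the span that the gene table gives for that gene. Capitals mark each match to GAANNTTC, 2 facing units of the heat shock element, which reads the same on both strands.
Hspb1: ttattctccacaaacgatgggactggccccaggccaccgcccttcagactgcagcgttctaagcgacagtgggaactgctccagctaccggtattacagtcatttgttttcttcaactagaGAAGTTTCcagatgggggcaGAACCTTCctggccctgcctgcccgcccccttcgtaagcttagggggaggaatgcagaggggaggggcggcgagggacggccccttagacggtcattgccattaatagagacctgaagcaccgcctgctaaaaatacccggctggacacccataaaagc
Hspb6: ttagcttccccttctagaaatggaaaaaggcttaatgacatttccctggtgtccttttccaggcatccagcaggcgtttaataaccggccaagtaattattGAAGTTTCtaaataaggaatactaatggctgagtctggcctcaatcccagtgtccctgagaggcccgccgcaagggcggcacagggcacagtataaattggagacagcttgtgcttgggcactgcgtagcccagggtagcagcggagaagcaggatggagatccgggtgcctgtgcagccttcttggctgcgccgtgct
Hspb8: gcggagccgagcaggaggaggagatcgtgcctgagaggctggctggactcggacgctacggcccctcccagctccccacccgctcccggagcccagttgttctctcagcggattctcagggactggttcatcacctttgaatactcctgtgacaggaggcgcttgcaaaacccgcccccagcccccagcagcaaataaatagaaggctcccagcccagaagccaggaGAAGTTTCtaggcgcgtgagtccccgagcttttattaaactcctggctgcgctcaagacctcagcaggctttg
Bag3: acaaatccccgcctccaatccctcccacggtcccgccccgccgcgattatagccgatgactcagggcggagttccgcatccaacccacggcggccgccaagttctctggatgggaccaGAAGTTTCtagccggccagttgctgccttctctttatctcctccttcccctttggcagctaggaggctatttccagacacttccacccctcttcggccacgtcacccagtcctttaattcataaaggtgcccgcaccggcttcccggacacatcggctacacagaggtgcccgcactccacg
Hspb7: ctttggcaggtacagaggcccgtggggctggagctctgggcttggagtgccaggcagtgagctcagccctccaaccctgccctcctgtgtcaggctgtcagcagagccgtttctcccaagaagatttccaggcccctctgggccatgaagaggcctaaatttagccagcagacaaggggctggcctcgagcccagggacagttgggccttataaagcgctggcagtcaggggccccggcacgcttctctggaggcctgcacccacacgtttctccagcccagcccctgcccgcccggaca

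GAANNTTC stood in 4 of the 6 windows, against 8.59% of the 33469 windows of the table. Hspb1 held 2 matches, 129 and 109 bases upstream of the start, and Hspb6, Hspb8 and Bag3 held 1 each, at 149, 23 and 132 bases upstream. In each of the 4 windows 1 match read GAAGTTTC, a form noticed after the sequences were seen and present on either strand in 1.39% of all windows. The facing form TTCNNGAA, also read the same on both strands, was in the Hspb6 window alone and in 8.77% of all windows. A run of 3 such units, GAA and TTC in turn with 2 free bases between them, was on neither strand of any of the 6 windows and in 0.798% of all windows. The printed Hspb7 window, of the gene with the largest change in control rats, held none of these letters, nor did that of Hspb3. These matches describe sequence and are not shown to be bound.

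Levels are CPM, each gene's counts scaled to a common library size, after TMM scaling, which corrects for differences in library composition. The libraries were made with a kit that reads each transcript from its 3′ end, so a level was not divided by length. How much of each gene's 3′ end the counting took in was not tested. The order of levels between genes need not be that of their transcripts. Libraries 1 and 2 of knockout rats at room temperature are known by their group alone, and their numbers are names. Library totals ran from 7.28e+06 to 2.58e+07 counts. Every skeletal muscle defining gene of a list of 10 was measured, and their summed mean level was lower in cold, at 155383 and 126295 CPM in control rats and 152449 and 127275 CPM in knockout rats; 3 and 4 of the 10 were called lower, among them Ckm, the muscle creatine kinase, in both (log2 -0.28 and -0.46, adjusted p = 0.0243 and 7.83e-05). Library composition moved with cold as well. The 10 most abundant genes held 27.7% to 31.6% of counts at room temperature and 23.5% to 25.2% in cold in control rats, and 26.3% to 29.9% and 23.0% to 25.3% in knockout rats, without overlap in either. Mitochondrial genes held 10.3% to 11.9% and 6.99% to 10.2% in control rats, without overlap, and 8.96% to 12.6% and 8.12% to 11.5% in knockout rats. The part of these shifts in the results below was not tested. Ucp1 was not analysed here, so the knockout was not checked by its target. Libraries 2 and 3 of control rats at room temperature and libraries 1 and 3 of knockout rats at room temperature lay lowest on the first principal component, which held 21.7% of the variance. All 4 are at room temperature. Their scores ran from -65.6 to -41.3, and library 6 of control rats at room temperature came next at -32.8, with no clear break. They are called below the libraries that stand apart, which is a name only. Without them the cold calls among the 8 genes were Hspb7, Bag3 and Hspb6 in control rats and Hspb8, Hspb6, Bag3, Hspb7 and Cryab in knockout rats, and 0 of the 8 were called between the genotypes at room temperature.

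Cryab and Hspb7 had the highest mean levels of the 8 genes in every group, and Hspb2 the lowest. At room temperature in control rats the mean levels fell in the order Cryab (1723 ± 477 CPM, SD, n = 7), Hspb7 (1172 ± 414), Hspb8 (690 ± 125), Hspb1 (553 ± 121), Hspb6 (499.6 ± 101.7), Bag3 (248 ± 21.3), Hspb3 (87.3 ± 9.79) and Hspb2 (4.69 ± 2.20). The ranges of Cryab and Hspb7 overlapped, as did those of Hspb8, Hspb1 and Hspb6 with their neighbours, while the other steps did not. In cold the mean of Hspb7 stood above that of Cryab in control rats (2465 against 2140 CPM), in 7 of 7 libraries, and in knockout rats the means were 2222 and 2221 CPM. Hspb6 stood above Hspb1 in the mean of both cold groups and below it in both groups at room temperature, with overlapping ranges each time. The 8 genes summed to 4978 ± 1020 CPM at room temperature and 7298 ± 834 in cold in control rats. In knockout rats they summed to 4891 ± 668 and 7553 ± 625 CPM. Cryab and Hspb7 together made up about 57% to 63% of the sum, by group.

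**Figure D1:**
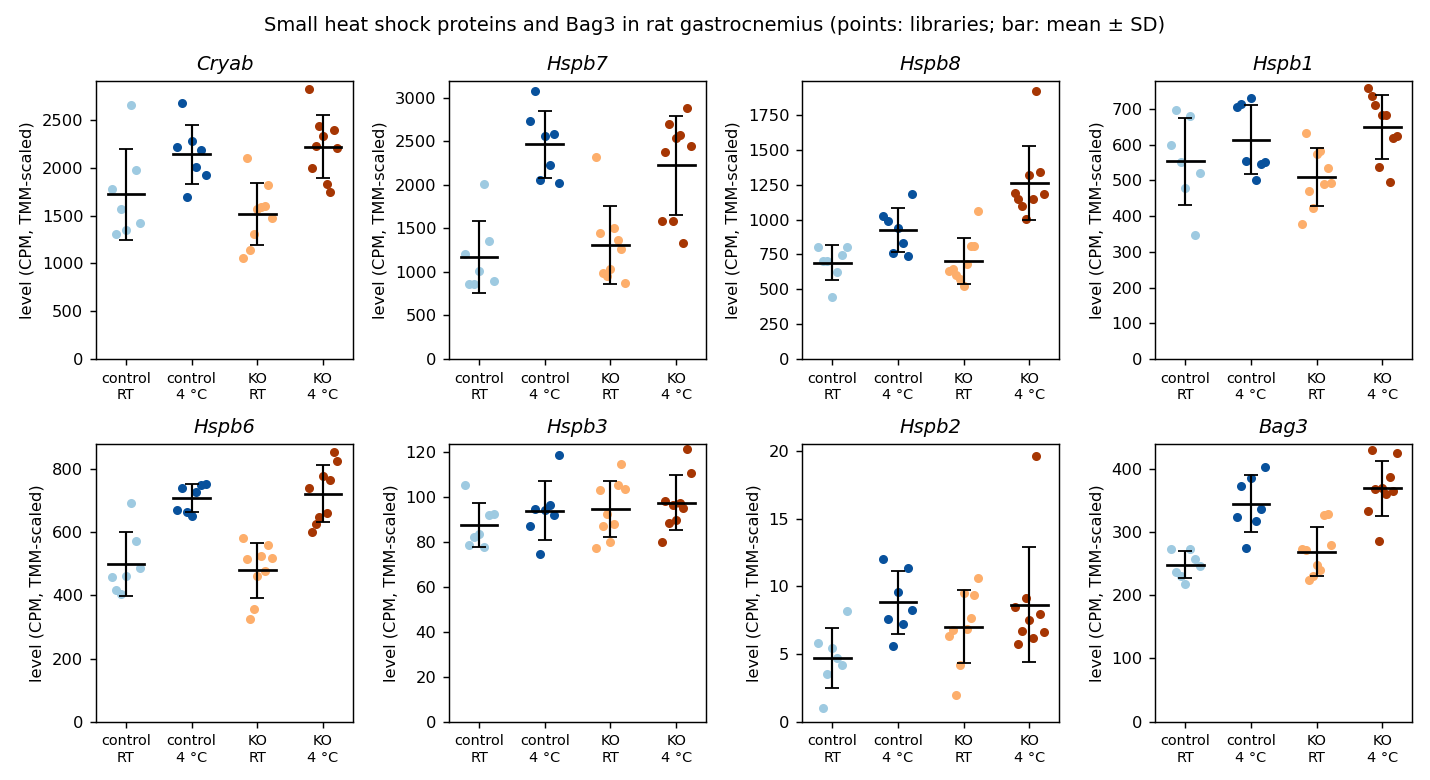
Level of each of the 8 genes in CPM (TMM-scaled, axis from 0) by group; each point is 1 library (n = 7 per control group, 9 per knockout group), and the bars give the mean ± SD. Hspb7 and Bag3 in control rats and Hspb6 in knockout rats show no overlap between temperatures, and single high libraries stand out for Hspb2 and Hspb8 in knockout rats after cold.

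The first comparison asked what prolonged cold does to these genes in control rats. In muscle of control rats 5 of the 8 genes were higher after cold and 0 lower, against a background of 12.4% of all 11594 tested genes called higher, 8.28% lower and 20.7% in either direction (edgeR quasi-likelihood test, Benjamini-Hochberg adjusted p under 0.05 over all tested genes). The 5 were Hspb7, Bag3, Hspb6, Hspb8 and Hspb2. Their changes ran from log2 0.42 to 1.07, and the median log2 change of the 8 genes was 0.45 beside 0.03 for all tested genes. Because the 8 genes were chosen with earlier results known, such counts in either genotype describe the set and do not test it.

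In UCP1 knockout rats the same contrast called 6 of the 8 genes higher and 0 lower, where 7.49% of all tested genes were called higher, 6.28% lower and 13.8% in either direction. The 6 were Hspb8, Hspb6, Bag3, Cryab, Hspb7 and Hspb1, with log2 changes from 0.35 to 0.84. The median over the 8 genes was 0.50, beside 0.01 for all tested genes. Hspb6, Hspb7, Hspb8 and Bag3 were called in both genotypes, and Hspb3 in neither.

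Hspb7, a small heat shock protein of heart and skeletal muscle that binds the actin cross-linker filamin C, had the largest cold change in control rats. Its level ran from 863 to 2009 CPM at room temperature (median 1006) and from 2022 to 3076 CPM in cold (median 2561). The groups did not overlap, although the highest library at room temperature nearly met the lowest in cold; 3.42% of all tested genes had every cold library above every library at room temperature. The rise was 2.10-fold (log2 1.07 ± 0.21, SE, adjusted p = 0.000464). In knockout rats Hspb7 ran from 875 to 2322 CPM (median 1267) at room temperature and from 1327 to 2878 CPM (median 2440) in cold. These ranges overlapped, and the rise was 1.70-fold (log2 0.77 ± 0.18, adjusted p = 0.0037), with 9 of 9 cold libraries above the mean at room temperature.

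Cryab, the αB-crystallin of lens and muscle that protects desmin filaments, rose in knockout rats. Its level there ran from 1056 to 2107 CPM at room temperature (median 1566) and from 1744 to 2819 CPM in cold (median 2233), with overlap. The change was 1.46-fold (log2 0.55 ± 0.13, adjusted p = 0.00263). In control rats Cryab ran from 1312 to 2654 CPM (median 1569) and from 1690 to 2675 CPM (median 2181), a log2 difference of 0.31 ± 0.14 that did not pass (adjusted p = 0.117). Library 5 at room temperature decided that value: at 2654 CPM it stood within the cold range, and without it Cryab passed (log2 0.45, adjusted p = 0.0161). The difference between the genotypes' cold responses was 0.23 ± 0.19 and was not called (adjusted p = 0.641).

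Hspb8, the small heat shock protein that forms a stable complex with Bag3, had the smallest p of the 8 genes in knockout rats. It ran from 522 to 1059 CPM at room temperature (median 648) and from 1005 to 1920 CPM in cold (median 1180). A single library at room temperature, number 9, reached into the cold range. The rise was 1.79-fold (log2 0.84 ± 0.13, adjusted p = 1.92e-05). In control rats Hspb8 ran from 447 to 806 CPM (median 704) and from 738 to 1181 CPM (median 943), an overlapping rise of 1.34-fold (log2 0.42 ± 0.14, adjusted p = 0.0346). That call was lost on leaving out any 1 of 8 libraries, where the adjusted p reached 0.093, and without the 4 libraries that stand apart (adjusted p = 0.0782).

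Bag3 itself changed by nearly the same amount in both genotypes. In control rats it ran from 218 to 274 CPM at room temperature (median 246) and from 275 to 403 CPM in cold (median 336), with no overlap, although the nearest libraries were 273.7 and 274.7 CPM. The rise was 1.39-fold (log2 0.47 ± 0.10, adjusted p = 0.000745). In knockout rats it ran from 224 to 329 CPM (median 271) and from 285 to 429 CPM (median 368), an overlapping rise of 1.37-fold (log2 0.46 ± 0.09, adjusted p = 0.000293). The Bag3 call held in each fit with 1 library left out, in both genotypes, with adjusted p at most 0.00307. Its coefficient of variation in control rats at room temperature, 8.60%, was the lowest of the 8 genes in that group.

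Hspb6, known as Hsp20, a small heat shock protein of striated and smooth muscle, was called in both genotypes. In knockout rats it ran from 326 to 582 CPM at room temperature (median 517) and from 601 to 854 CPM in cold (median 740). It was the 1 member of the 8 whose libraries did not overlap in that genotype, where 0.975% of all tested genes had every cold library higher; the rise was 1.505-fold (log2 0.59 ± 0.10, adjusted p = 0.000117). In control rats it ran from 403 to 694 CPM (median 463) and from 651 to 752 CPM (median 727). Library 5 at room temperature alone reached into the cold range, and the rise was 1.42-fold (log2 0.50 ± 0.12, adjusted p = 0.00228).

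Hspb1, known as Hsp27 or Hsp25, which binds actin filaments, passed in knockout rats. It ran from 377 to 632 CPM at room temperature (median 492) and from 496 to 758 CPM in cold (median 682), an overlapping rise of 1.28-fold (log2 0.35 ± 0.11, adjusted p = 0.0309). This call was lost on leaving out any 1 of 9 libraries, where the adjusted p reached 0.0747, and without the libraries that stand apart (adjusted p = 0.112). In control rats Hspb1 ran from 346 to 697 CPM (median 552) and from 499.9 to 730 CPM (median 555), a difference of 0.15 ± 0.13 (adjusted p = 0.436). In cold, 4 libraries lay from 499.9 to 555 CPM and 3 from 706 to 730 CPM.

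Hspb2 and Hspb3 are muscle proteins that bind each other. Hspb2 had by far the lowest level. It ran from 1.002 to 8.19 CPM (median 4.68) in control rats at room temperature and from 5.62 to 12.03 CPM (median 8.25) in cold. The groups overlapped; the rise was 1.86-fold (log2 0.89 ± 0.32, adjusted p = 0.0424) and was lost on leaving out any 1 of 7 libraries, where the adjusted p reached 0.0879, and without the 4 libraries that stand apart (log2 0.62 ± 0.26, adjusted p = 0.101). In knockout rats it ran from 1.98 to 10.6 CPM (median 6.85) and from 5.76 to 19.6 CPM (median 7.54), a difference of 0.31 ± 0.28 that did not pass (adjusted p = 0.511). Without knockout library 7 in cold, the one at 19.6 CPM, this difference was 0.04. In the GRCr8 gene table Hspb2 overlaps its neighbour Cryab on chromosome 8, and Hspb6 overlaps Lin37 on chromosome 1; the sources used here do not give whether counting used strand, so reads of such neighbours may be split between them.

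Hspb3 had the smallest cold difference of the 8 genes in both genotypes. It ran from 77.7 to 105 CPM (median 83.7) at room temperature and from 74.8 to 119 CPM (median 94.1) in cold in control rats. The difference was 0.11 ± 0.10 (adjusted p = 0.497). In knockout rats it ran from 77.4 to 115 CPM (median 92.6) and from 79.8 to 121 CPM (median 96.5), a difference of 0.04 ± 0.09 (adjusted p = 0.805). The ranges overlapped almost fully in both.

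**Figure D2:**
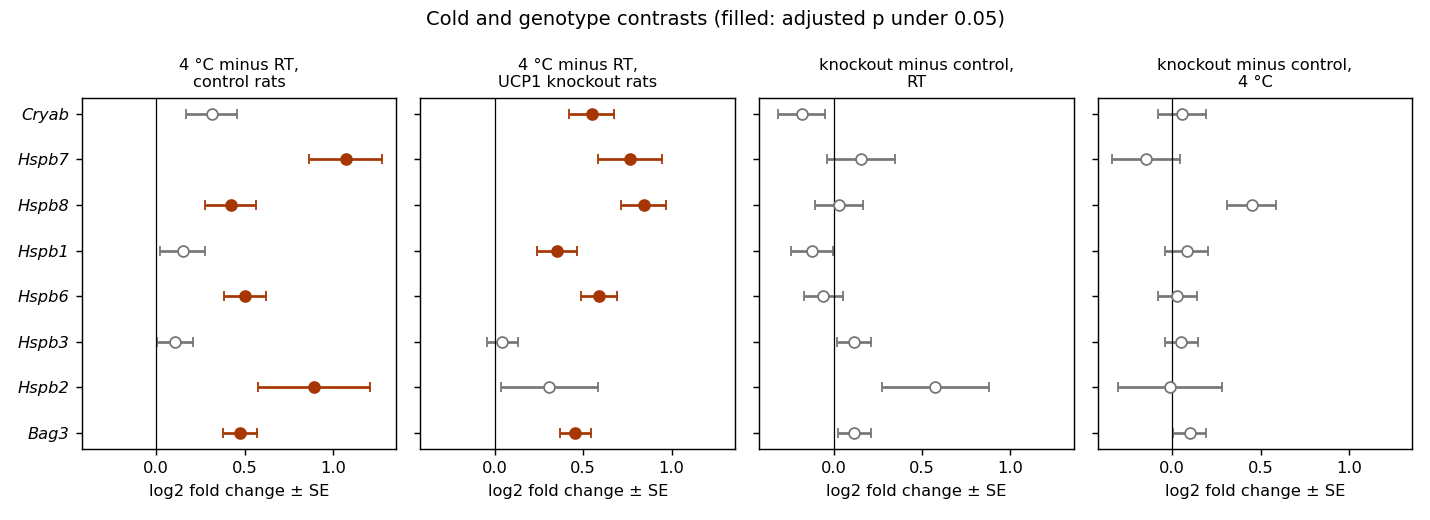
Log2 fold change ± SE of the 8 genes in 4 contrasts; filled points passed an adjusted p of 0.05. Cold moved 5 genes in control rats and 6 in knockout rats, all upward, and no gene passed in either comparison of the genotypes.

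The second question was whether loss of UCP1 alters these genes. At room temperature 0 of the 8 genes differed between knockout and control rats, where 2.61% of all tested genes were called; 0 of the 8 had an unadjusted p under 0.05, and DESeq2 also called 0. The differences ran from -0.18 ± 0.13 for Cryab to 0.57 ± 0.30 for Hspb2 (log2, adjusted p = 0.531 and 0.332). After cold 0 of the 8 passed as well, with 0.0518% of all tested genes called. Hspb8 came nearest: the knockout rats stood at 1262 ± 268 CPM (SD, n = 9) and the control rats at 924 ± 159 CPM (n = 7), with 9 of 9 knockout libraries above the control mean (log2 0.45 ± 0.14, unadjusted p = 0.00232, adjusted p = 0.079). It was the 1 gene with an unadjusted p under 0.05, and DESeq2 called it (adjusted p = 0.0494). It also passed without control library 7 in cold (adjusted p = 0.0336), while without knockout library 7 in cold, the highest, the difference fell to 0.35 (adjusted p = 0.179).

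The test of whether cold acted differently in the genotypes called 0 of the 8 genes and 0.0259% of all tested genes. Hspb8 had a difference of 0.42 ± 0.19 between its cold responses, with an unadjusted p of 0.0356 and an adjusted p of 0.337, and DESeq2 called 0 of the 8. The other 7 genes ran from -0.59 ± 0.42 for Hspb2 to 0.23 ± 0.19 for Cryab. So genes called in 1 genotype and not in the other, namely Cryab, Hspb1 and Hspb2, were not shown to differ between them.

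Fibre markers moved with the cold calls. Of 12 genes of the slow-fibre sarcomere 11 were higher and 0 lower in control rats after cold, and 10 and 0 in knockout rats. Their summed level went from 6834 to 12895 CPM at room temperature to 13054 to 22578 CPM in cold in control rats, without overlap, and from 6747 to 15990 to 10771 to 22904 CPM in knockout rats. Of 11 fast-fibre genes 0 were higher and 6 lower in control rats, and 0 and 4 in knockout rats. In whole muscle, fewer cells of a type and less RNA per cell cannot be told apart, and the same holds for more. Within groups the slow-fibre mean rose with Hspb6 (r = 0.66 over 32 libraries, group means subtracted), Cryab (0.56) and Hspb2 (0.54), less with Bag3 (0.43) and Hspb7 (0.42), and little with Hspb8 (0.19) and Hspb1 (0.07). With the fast-fibre mean r was 0.40 for Hspb8, -0.35 for Hspb1 and -0.28 for Cryab, and between -0.15 and 0.12 for the other 5 genes.

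With the slow-fibre mean as a covariate 0 of the 8 genes passed in control rats and 1 in knockout rats. That one was Hspb8 (log2 0.72 ± 0.18, adjusted p = 0.013), whose estimate hardly moved. Hspb6 went from 0.50 to 0.09 in control rats and from 0.59 to 0.24 in knockout rats, and Hspb7 from 1.07 to 0.61 and from 0.77 to 0.39. The covariate itself differs between temperatures, so this fit cannot separate a fibre shift from other effects of cold.

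Smooth muscle, which also holds Hspb1, Hspb6 and Cryab, was checked with 9 markers. Of these, 3 were called higher and 0 lower after cold in control rats, and 0 were called in knockout rats. Their median log2 changes were 0.55 and 0.22. The summed level was 368 to 427 CPM at room temperature and 442 to 566 CPM in cold in control rats, and 308 to 646 and 408 to 664 CPM in knockout rats. Within groups the correlation of each of the 8 genes with this list lay between -0.06 and 0.18. Macrophage markers were higher for 7 of 12 genes in control rats and 6 of 12 in knockout rats, with sums of 132 to 215 and 204 to 330 CPM in control rats and 120 to 162 and 166 to 303 CPM in knockout rats. Adipocyte markers were higher for 4 of 8 and 2 of 8, with sums of 192 to 226 and 278 to 454 CPM in control rats and 172 to 650 and 313 to 491 CPM in knockout rats. Endothelial markers were higher for 2 of 8 genes in each genotype, with sums of 203 to 260.0 and 214 to 304 CPM in control rats and 199 to 295 and 257 to 331 CPM in knockout rats. Erythroid markers were higher for 3 of 4 tested genes in control rats and 1 of 4 in knockout rats, with sums of 156 to 526 and 275 to 2429 CPM in control rats and 162 to 560.0 and 373 to 888 CPM in knockout rats. The part of RNA of these cell types in the changes of the 8 genes was not tested.

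A set of 57 genes was chosen after the data were seen. They were lower by at least 2 on the log2 scale in library 3 of knockout rats at room temperature than in the mean of the other libraries of that group. Their mean log2 CPM is called the index of missing transcripts, which is a name only. Whether transcripts were lost from a library or less expressed was not tested. The index ran from 2.65 to 4.75 in control rats at room temperature and from 5.31 to 5.64 in cold, without overlap. In knockout rats it ran from 2.61 to 5.63 and from 5.08 to 5.80. Within groups Hspb2 followed the index closely (r = 0.74), Cryab (0.43) and Hspb3 (0.39) less, and Hspb7 did not (-0.08). At room temperature control library 2 and knockout library 3 were lowest in both Hspb2 and the index, and the latter library defined the index. Knockout library 1 at room temperature was also low on the index (3.48), with Hspb2 at 6.31 CPM. With the index as a covariate 1 of the 8 genes passed in control rats, Hspb7 (log2 1.21 ± 0.27, adjusted p = 0.0116), and 5 in knockout rats, the 6 named above without Hspb1. Hspb2 in control rats went from 0.89 to -0.11. Bag3 went from 0.47 to 0.35 ± 0.12 (adjusted p = 0.0985) and Hspb6 from 0.50 to 0.37 ± 0.15 (adjusted p = 0.171), and neither passed. Since the index separates the temperatures of control rats, it and cold cannot be told apart there.

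**Figure D3:**
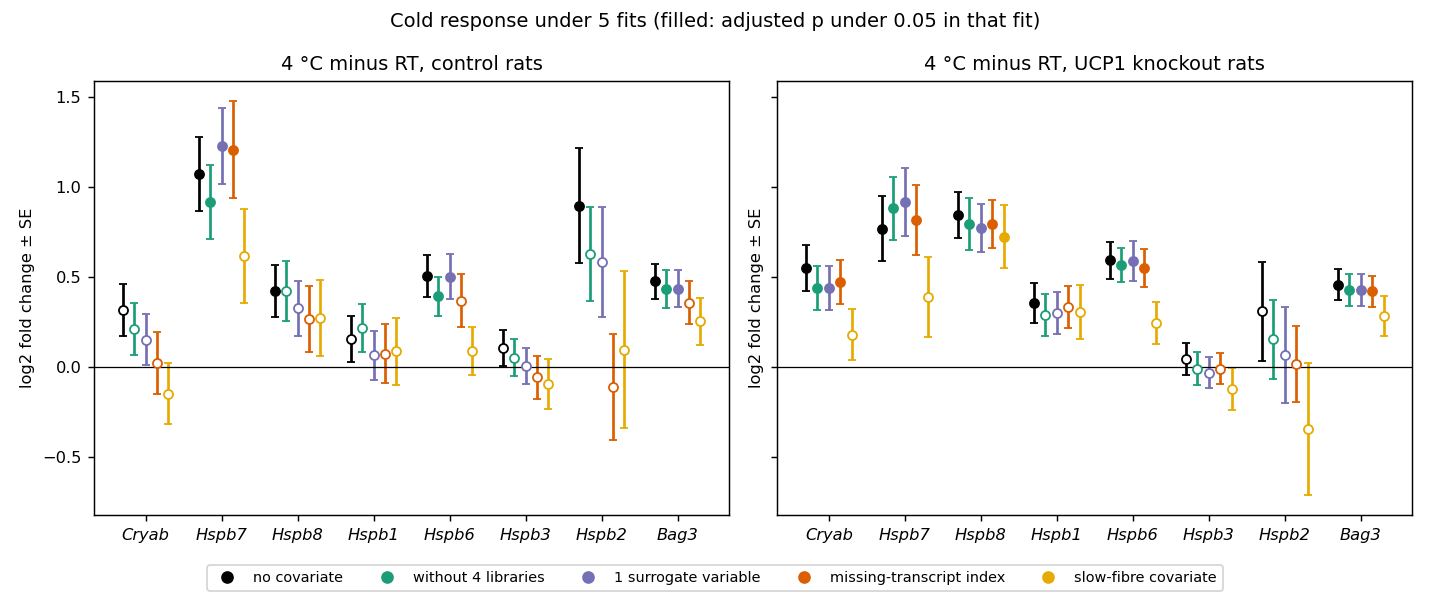
Log2 cold change ± SE of the 8 genes in control rats (left) and knockout rats (right) under 5 fits; filled points passed an adjusted p of 0.05 in that fit. In control rats Hspb7 stays at 0.91 or more except with the slow-fibre covariate (0.61), and Hspb8 stays at 0.72 or more in all 5 fits in knockout rats.

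The genes varied together only in part once group means were subtracted. Of 28 pairs 22 had a positive r, with a median of 0.28 and a range from -0.16 to 0.58 over 32 libraries, which share depth and the composition of each library. The closest pairs were Hspb3 with Bag3 (0.58), Hspb8 with Bag3 (0.55) and Hspb6 with Hspb7 (0.53). Hspb7 and Hspb8, the genes of largest change in control and in knockout rats, had the lowest value (-0.16). Hspb1 stood apart, with r above 0.2 for Cryab alone.

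**Figure D4:**
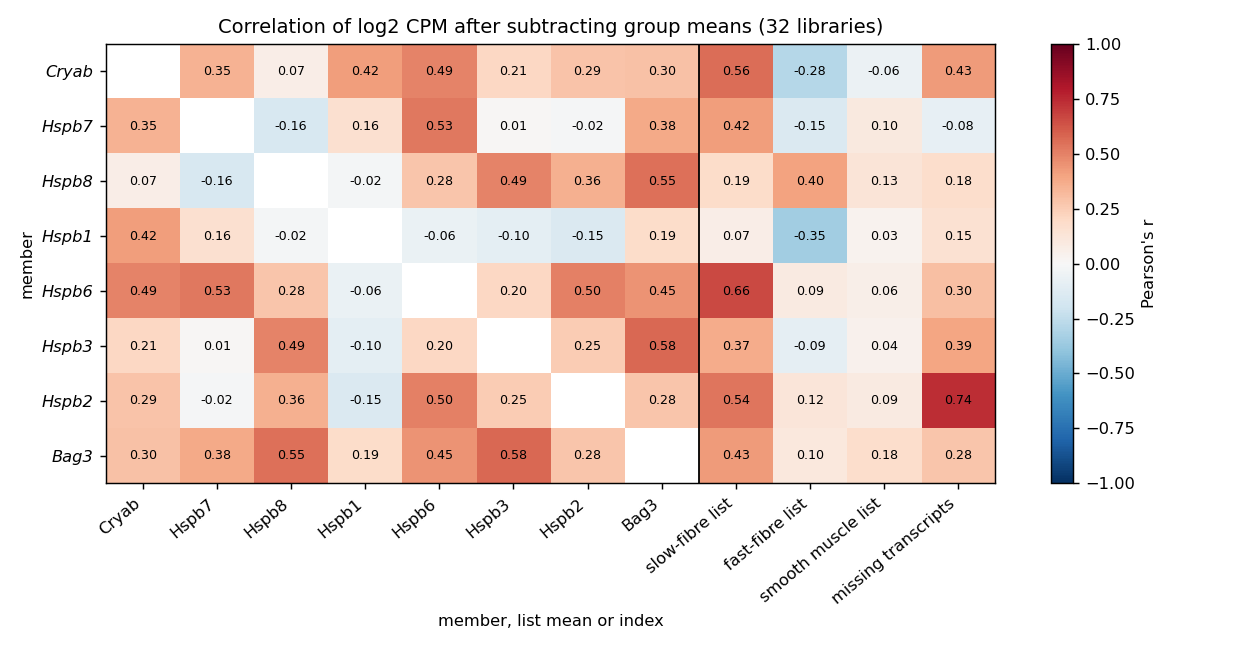
Pearson's r of log2 CPM after subtracting group means (32 libraries), among the 8 genes (left of the line) and with the slow-fibre, fast-fibre and smooth muscle list means and the index of missing transcripts (right of it). The Hspb2 value of 0.74 with the index and the Hspb6 value of 0.66 with the slow-fibre list are the highest shown.

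The nearest genes given here were picked as the highest r among all tested genes of at least 5 CPM, so their r values are not to be set against those between the 8 genes. The genes most like Hspb2 were Gapdh (r = 0.94), a glycolytic enzyme, Sdhc (0.93), a subunit of succinate dehydrogenase, and Hspe1 (0.91), the mitochondrial co-chaperonin. Gapdh stood at 50.9 CPM in the control library at room temperature where Hspb2 was at 1.002 CPM. Cryab was closest to Ankrd2 (0.75), a stretch-responsive ankyrin repeat protein, and Pdlim1 (0.75), a Z-disc adaptor. Ankrd2 itself rose in cold in control rats (log2 0.99 ± 0.27, adjusted p = 0.00949) and in knockout rats (1.03 ± 0.24, adjusted p = 0.00357). Hspb8 was closest to Pacsin3 (0.82), an endocytic adaptor of muscle that was not called in either genotype (log2 -0.06 and 0.20), and to Arpc3 (0.80), a subunit of the actin-nucleating Arp2/3 complex. Bag3 was closest to Slc2a4 (0.75), the insulin-responsive glucose transporter. Hspb1 was closest to Serpinh1 (0.68), the collagen chaperone, and Myog (0.65), a muscle regulatory factor, was among its 3 nearest genes. Hspb3 was closest to Cbx6 (0.78), Hspb6 to Tenm2 (0.80) and Hspb7 to Phldb1 (0.69).

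**Figure D5:**
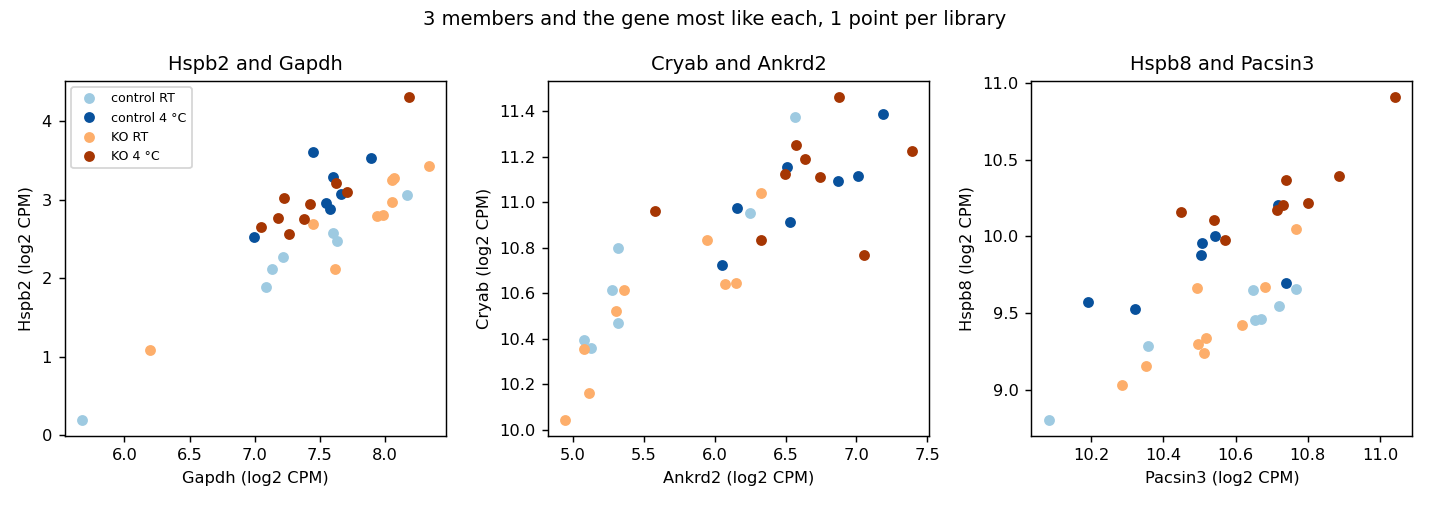
Log2 CPM of Hspb2, Cryab and Hspb8 (vertical) against the gene most like each by within-group correlation (horizontal); each point is 1 of 32 libraries, coloured by group. Hspb2 and Gapdh are both lowest in the same 2 libraries at room temperature, and most cold libraries lie above those at room temperature in Hspb8 at a like level of Pacsin3.

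Partners of these genes are set beside all tested genes, of which 12.4% were higher and 8.28% lower in control rats after cold, and 7.49% and 6.28% in knockout rats. Of 32 tested stress-inducible chaperones and heat shock factors 4 were higher and 4 lower in control rats, near those shares, and 5 and 5 in knockout rats, with median log2 changes of 0.12 and 0.11. Hsf1, the master factor of the heat shock response, went from 5.74 ± 1.16 to 11.8 ± 1.97 CPM in control rats (SD, n = 7 each; log2 1.03 ± 0.20, adjusted p = 0.000481) and from 10.5 ± 3.75 to 9.85 ± 1.06 CPM in knockout rats (n = 9 each; -0.10 ± 0.18, adjusted p = 0.77). At room temperature it was higher in knockout than in control rats (log2 0.87 ± 0.19, adjusted p = 0.013), a call that was lost in the fit of the compared groups alone, which called 0 genes. The difference of its cold responses was -1.13 ± 0.27 (adjusted p = 0.0872), and passed without the 4 libraries that stand apart (-1.28 ± 0.18, adjusted p = 0.00026). Within groups Hsf1 had r = 0.88 with the index of missing transcripts. With that index as a covariate the cold change of Hsf1 in control rats was 0.18 ± 0.17 (adjusted p = 0.633). The genotype difference of Hsf1 at room temperature was then 0.23 ± 0.14 (adjusted p = 0.558). The index itself differs between these temperatures and, in its median, between these genotypes. This fit can therefore not separate the index from cold or genotype. The r of Hsf1 with the 8 genes within groups ran from -0.10 for Hspb7 to 0.64 for Hspb2.

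Dnajb4, an Hsp40 co-chaperone, rose in control rats (log2 0.97 ± 0.20, adjusted p = 0.000907) and had r = 0.82 with the index of missing transcripts; in knockout rats its difference was 0.38 ± 0.18 (adjusted p = 0.158). Hspa1l, an Hsp70, fell by 0.73 in control rats (adjusted p = 0.00044) and by 0.46 in knockout rats (adjusted p = 0.0109). In knockout rats Chordc1 (0.33 ± 0.07), an Hsp90 co-chaperone, and Hsph1 (0.38 ± 0.09), which exchanges nucleotide on Hsp70, rose (adjusted p = 0.00166 and 0.00202), while in control rats they stood at -0.04 and 0.02 and were not called. Fkbp4, an Hsp90 co-chaperone, fell by 0.39 in control rats (adjusted p = 0.00279) and by 0.36 in knockout rats (adjusted p = 0.00243). Of 17 partners of Bag3 in autophagy 3 were higher and 2 lower in control rats, and 6 and 4 in knockout rats. Gabarapl1, an autophagosome protein, rose in control rats (0.49 ± 0.11, adjusted p = 0.00184) and in knockout rats (0.70 ± 0.10, adjusted p = 6.50e-06). Nbr1, an autophagy receptor, rose in control rats (0.84 ± 0.16, adjusted p = 0.000304) and in knockout rats (0.58 ± 0.14, adjusted p = 0.00304) and had r = 0.86 with the index of missing transcripts, while Gabarapl1 had 0.05. Synpo2, the Z-disc protein to which Bag3 binds, fell by 0.56 in control rats (adjusted p = 0.0109) and by 0.79 in knockout rats (adjusted p = 0.000164), with r = -0.63 with the index. Ubqln2 rose in control rats (0.95 ± 0.21, adjusted p = 0.0014) and had r = 0.73 with the index. Its difference in knockout rats, 0.30 ± 0.18, was not called (adjusted p = 0.299). Wipi1 rose in knockout rats (0.46 ± 0.10, adjusted p = 0.00162). In control rats Wipi1 stood at 0.15 ± 0.11 and was not called (adjusted p = 0.388).

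Among the 4 other BAG family genes tested, Bag2 was higher in control rats (0.50 ± 0.16, adjusted p = 0.0194, r = 0.75 with the index). Bag4 was lower there (-0.93 ± 0.33, adjusted p = 0.0390), at low mean levels of 2.03 CPM at room temperature and 1.05 CPM in cold. Neither Bag2 nor Bag4 was called in knockout rats (0.34 and -0.05). In knockout rats Bag1 (-0.26 ± 0.08, adjusted p = 0.0176) and Bag6 (-0.29 ± 0.08, adjusted p = 0.00981) were lower, and in control rats they stood at -0.18 and -0.17 and were not called. Of 23 Z-disc and intermediate filament genes 7 were higher and 3 lower in control rats, and 6 and 5 in knockout rats. They included Vim, the intermediate filament vimentin, which rose in control rats (0.90 ± 0.12, adjusted p = 6.65e-06) and in knockout rats (0.52 ± 0.10, adjusted p = 0.000676), and Actn3, the fast-fibre α-actinin, which fell by 0.74 in control rats (adjusted p = 4.32e-05) and by 0.66 in knockout rats (adjusted p = 1.96e-05).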

How the data were processed

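RNA of gastrocnemius was sequenced from 3′ ends (QuantSeq, per the labels' protocols). The authors deposited raw counts per gene and values divided by 1 size factor per library; the counts were used, and the normalised signal, which the authors deposited beside them, served only to check the size factors. Per the submitters' processing notes, R 3.4.3, DESeq2 1.18.1 and the build Rnor_6.0 were used; for the aligner and counter the sources used here give no name. No deposited count was odd, so counts divided by 2 were tried as an alternative. Knockout libraries at room temperature are numbered as in the sample descriptions, except 2 whose headings match the title of one sample and the description of another of that group; they are called 1 and 2, enter as members of the group, and pair with nothing.

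These counts were tested with edgeR 4.0.16 under R 4.3.3: filterByExpr (minimum count 10; 11594 genes tested), TMM factors, 1 mean per group over 32 libraries, robust quasi-likelihood F tests, and Benjamini-Hochberg adjustment over all tested genes at 0.05. SE is the absolute log2 change over the square root of F. Correlations used log2 CPM (prior count 2) with group means subtracted. Depth left counting error small for 7 genes and larger for Hspb2, whose lowest count was 12. The labels do not say that libraries of a group came from separate animals, so p-values measure the spread between these samples. Replicate numbers showed no pairing of the samples. This check cannot decide in knockout rats, whose headings at room temperature follow another numbering than those in cold. The script was tested on simulated data.

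The members and gene lists were chosen with earlier results of these data known. All 8 members are described; from the lists, a selection of the up to 3 genes of smallest p past the threshold in each cold contrast is named, and for likeness up to 3 genes of at least 5 CPM per member. Pacsin3, Gapdh and Ankrd2 were plotted after their values were seen. Alternatives were RLE factors, TMM factors that leave out the 20 most abundant genes, no low-count filter, DESeq2 1.42.0, the compared groups alone, counts divided by 2, a replicate block, the slow-fibre level, 1 surrogate variable (sva 3.50.0), 4 libraries left out, an adjusted p of 0.01, and each library left out. The 4 libraries left out were picked from their place in these data. Alternatives added after seeing the data were the index of missing transcripts, 5 libraries left out, and a block within genotype. The index of the report was built from library 3 of knockout rats at room temperature alone (at least 2 lower on the log2 scale, 10 CPM elsewhere). Separate indices were built likewise from library 2 of control rats and library 1 of knockout rats, both at room temperature.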

Additional observations from a re-analysis of the deposited data

Results flagged for a closer look

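In 4 of the 32 combinations of gene and group 1 library stood far above the rest by Dixon's criterion, which chance meets in about 1 of 20 groups. Hspb2 was at 19.6 CPM in library 7 of knockout rats in cold, and the next library was at 9.10 CPM. Hspb8 was at 1920 CPM in that same library, and the next at 1344 CPM. That library was the lowest of its group for Hspb7 (1327 CPM), Cryab (1744 CPM) and Hspb1 (496 CPM). Hspb7 was at 2009 CPM in library 5 of control rats at room temperature, with the next at 1355 CPM; without it the cold change in control rats was 1.25 ± 0.20 (log2, SE, adjusted p = 7.56e-05). Hspb7 was at 2322 CPM in library 1 of knockout rats at room temperature, with the next at 1505 CPM; without it the cold change in knockout rats was 0.90 ± 0.17 (adjusted p = 0.000422).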

How the results depend on the processing

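RLE factors, TMM factors that leave out the 20 most abundant genes, no low-count filter, the compared groups alone and counts divided by 2 left every call of the 8 genes as it was; DESeq2 added Hspb8 for knockout against control after cold, 1 of 8 genes. In control rats the number called after cold went from 5 to 0 with the slow-fibre level, to 3 with 1 surrogate variable, to 3 without the 4 libraries that stand apart, and to 3 at an adjusted p of 0.01. The index of missing transcripts gave 1, or 3 when built from library 2 of control rats or library 1 of knockout rats at room temperature, which gave 11 and 38 genes; library 3 of control rats gave 0 genes and no fit. In knockout rats the number went from 6 to 1 with the slow-fibre level. Leaving out 1 library at a time gave 3 to 5 in control rats, 5 to 6 in knockout rats, 0 to 1 for knockout against control after cold, and 0 in the other 2 comparisons. In control rats room temperature libraries 2 and 3 and cold libraries 1 and 4 each ended 2 calls, leaving 3, and room temperature library 5 ended 2 and added Cryab. Hspb2, Hspb8 and Hspb1 lost calls as given in the report.

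Replicate numbers showed no pairing of the samples. Of 14 same-numbered pairs 3 had r over 0.1 (range -0.224 to 0.187), and 3 correlated best with their own number. In knockout rats the headings at room temperature follow another numbering than those in cold, so the check cannot decide there. The replicate block joined libraries of like number over both genotypes, and the labels give no such block. With a replicate block 6 genes were called after cold in control rats, Cryab being added (adjusted p = 0.04997), and 5 in knockout rats, without Hspb1 (adjusted p = 0.0918). A block within genotype, chosen after seeing the data, gave 5 and 5, again without Hspb1 in knockout rats.

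Of the values that changed sign none passed an adjusted p of 0.05. With the slow-fibre level, log2 values became Hspb3 -0.097, Cryab -0.15 (cold, control rats), Hspb2 -0.35, Hspb3 -0.12 (cold, knockout rats), Hspb2 0.079 (genotype after cold), Bag3 0.029 (interaction). With the index from control library 2, log2 values became Hspb3 -0.0026 (cold, control rats), Hspb2 -0.025, Hspb8 -0.0098 (genotype at room temperature), Hspb2 0.12 (genotype after cold), Hspb2 0.15, Hspb3 0.033, Bag3 0.034 (interaction). With the index from knockout library 1, log2 values became Hspb3 -0.031 (cold, control rats), Hspb3 -0.0079 (cold, knockout rats), Hspb8 -0.014 (genotype at room temperature), Hspb2 0.021 (genotype after cold), Hspb3 0.023, Bag3 0.016 (interaction). With the index of the report, log2 values became Hspb2 -0.11, Hspb3 -0.059 (cold, control rats), Hspb3 -0.011 (cold, knockout rats), Hspb2 -0.13, Hspb8 -0.073 (genotype at room temperature), Hspb2 0.13, Hspb3 0.047, Bag3 0.063 (interaction). With 1 surrogate variable, log2 values became Hspb3 -0.034 (cold, knockout rats), Hspb8 -0.0032 (genotype at room temperature). Without the 4 libraries, log2 values became Hspb3 -0.011 (cold, knockout rats), Hspb7 -0.12 (genotype at room temperature). Without 5 libraries (those 4 and knockout library 7 in cold), log2 values became Hspb2 -0.12, Hspb3 -0.013 (cold, knockout rats), Hspb1 0.0064, Hspb7 -0.12 (genotype at room temperature), Hspb7 0.023 (interaction). With the replicate block, log2 values became Hspb7 -0.041, Hspb8 -0.0048 (genotype at room temperature), Hspb3 -0.014, Hspb6 -0.053 (genotype after cold). With 1 library left out, the ranges that crossed 0 were Hspb3 -0.0023 to 0.068 (cold, knockout rats), Hspb6 -0.12 to 0.024 (genotype at room temperature), Hspb7 -0.0070 to 0.33 (genotype at room temperature), Hspb8 -0.073 to 0.067 (genotype at room temperature), Hspb2 -0.28 to 0.067 (genotype after cold), Hspb6 -0.0034 to 0.060 (genotype after cold), Cryab -0.019 to 0.12 (genotype after cold), Hspb6 -0.020 to 0.12 (interaction), Bag3 -0.066 to 0.022 (interaction).

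Calls over all genes varied more. For knockout against control at room temperature 303 became 0 with the compared groups alone, 577 with DESeq2 and 1 with the index. The median of the index differs between those groups. After cold 6 became 431 with DESeq2 and 121 with RLE factors. For the interaction 3 became 112 with DESeq2 and 417 with 5 libraries left out. In control rats 2399 became 364 with the index and 522 with the slow-fibre level, and in knockout rats 1596 became 521 with the slow-fibre level. RLE factors turned the split of knockout against control after cold from 4 higher and 2 lower to 11 and 110. Depth limits Hspb2 most, and precision for the others is set by the spread between libraries.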
